A study of Mus musculus with 10 samples.

Results

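The genes described here are 10 transcription factors of the basic leucine zipper (bZIP) family other than Fos and Jun, namely Batf, Batf3, Atf3, Crem, Maff, Mafg, Mafk, Bach1, Nfil3 and Cebpb. They were taken by name from a list of bZIP factors and are 10 of the 45321 genes with a transcript in the deposited tables. They were chosen with earlier results of these data known. RNA was measured in naive CD4 T cells of C57BL/6 mouse spleen, sorted by the surface pattern CD4+CD62L+CD69-. Cells were pre-treated for 1 h with 12.5 µM Compound 10, which the study's design text calls an inhibitor of NFAT:AP-1, or with its vehicle DMSO, and were then stimulated for 2 h or left unstimulated. Stimulation was with 10 nM PMA, a phorbol ester and activator of protein kinase C, plus 1 µM ionomycin, a calcium ionophore that activates calcineurin and NFAT, so it bypassed the T cell receptor. The groups were stimulated Compound 10 cells (3 libraries), stimulated vehicle cells (2 libraries), unstimulated Compound 10 cells (2 libraries) and unstimulated vehicle cells (3 libraries), and all came from unmodified mice of that strain.

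A bZIP factor binds DNA only as a dimer held together by its leucine zipper, and the choice of partner sets which site it reads. BATF and BATF3 lack an activation domain and pair with JUN proteins at AP-1 sites, where in T cells they recruit IRF4 or IRF8, while ATF3 and CREM read cAMP-response (CRE) type sites. The small MAF proteins MAFF, MAFG and MAFK also lack an activation domain and serve as shared partners of the repressors BACH1 and BACH2 and of the activator NRF2. NFIL3 represses at D-box sites that PAR-type factors such as DBP activate, and C/EBPβ is a factor of myeloid and stress responses.

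Promoter windows from RefSeq (build GRCm38.p6), which reach from 250 bases before to 50 bases after a gene's start, were found for 9 of the 10 genes, in 11 windows because Maff had 3. The Atf3 window and the second Maff window are printed because these genes had the largest stimulation effects of the 10 and because they were the 2 windows with an ATF/CRE match, shown in capitals. The sequences run 5′ to 3′ on the gene's strand, which is minus for Atf3 (chr1:191183284-191183583) and plus for Maff (chr15:79347270-79347569).
Atf3: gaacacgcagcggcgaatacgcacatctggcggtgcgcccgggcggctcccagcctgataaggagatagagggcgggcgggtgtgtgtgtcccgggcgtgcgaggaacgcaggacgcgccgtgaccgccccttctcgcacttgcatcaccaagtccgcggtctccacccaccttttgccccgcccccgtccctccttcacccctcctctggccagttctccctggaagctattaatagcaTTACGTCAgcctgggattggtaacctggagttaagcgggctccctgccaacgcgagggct
Maff: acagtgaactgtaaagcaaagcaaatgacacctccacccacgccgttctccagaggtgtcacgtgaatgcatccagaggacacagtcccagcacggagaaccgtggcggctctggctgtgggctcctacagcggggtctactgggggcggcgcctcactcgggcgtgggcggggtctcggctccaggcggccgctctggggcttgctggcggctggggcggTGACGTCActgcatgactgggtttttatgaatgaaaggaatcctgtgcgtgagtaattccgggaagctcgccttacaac
The letters searched on both strands were TGANTCA for an AP-1 site, TGACGTNA for an ATF/CRE site and GGAAA for the core of an NFAT site. TGANTCA and TGACGTNA differ in length and do not match the same bases. The Atf3 match, TTACGTCA, began 10 bases before the RefSeq start, and the Maff match, TGACGTCA, began 29 bases before it. The ATF/CRE letters stood in 2.93% of all 32851 promoter windows of this length. The AP-1 letters stood in 0 of the 11 windows and in 7.81% of all windows, which says only that these letters are not within these 300-base stretches. The NFAT core stood in 5 of the 11 windows (Batf, Batf3, Mafg and the other 2 Maff windows) and in 61.3% of all windows.

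Libraries held 10694591 to 33486259 estimated counts, and gene levels are given as CPM, counts relative to a library's total after TMM scaling. The deepest was the second unstimulated Compound 10 library, and the other library of its group held 12580160. Next was the third unstimulated vehicle library with 27857586, and these 2 deepest libraries carry neighbouring index numbers (26 and 25). The part of depth in results that rest on them was not tested. Whether replicate libraries are from different mice or cultures is not in the labels, so a p-value here measures only the spread between libraries, which may be technical. A gene is described as risen, fallen or called where edgeR's quasi-likelihood test gave a Benjamini-Hochberg adjusted p under 0.05 over the 14417 genes tested. Groups of 2 or 3 libraries can lie apart without a call. The share of all genes whose groups did not overlap was not counted, so such a gap is description only. By library total, T cell identity markers summed to 2215 to 3075 CPM in every library, B cell markers to 3.20 to 11.8 CPM, myeloid markers to 0.789 to 4.36 CPM and NK markers to 0.658 to 3.44 CPM. Of the 10 T cell identity markers, stimulation raised 6 under vehicle and 3 with Compound 10 (19.5% and 12.8% of all genes) and lowered 0. Compound 10 lowered 4 and raised 0 in stimulated cells (12.8% and 10.4% of all genes). In unstimulated cells it raised 1 and lowered 0 (4.65% and 3.78%). Memory or effector T cell markers summed to 111 to 125 CPM in stimulated Compound 10 cells, 193 to 208 CPM in stimulated vehicle cells, 72.8 to 93.8 CPM in unstimulated Compound 10 cells and 20.2 to 36.6 CPM in unstimulated vehicle cells. Regulatory T cell markers summed to 39.4 to 68.6 CPM in stimulated Compound 10 cells, 126 and 165 CPM in stimulated vehicle cells, 34.9 and 44.2 CPM in unstimulated Compound 10 cells and 22.3 to 40.4 CPM in unstimulated vehicle cells. The 4 regulatory T cell markers did not move together. Their log2 changes with stimulation under vehicle ran from -0.10 to 5.145, with a median of 0.56. Their Compound 10 differences in stimulated cells ran from -2.06 to 0.24, with a median of -0.51. The part of these marker sets in the results below was not tested. TMM factors were at most 0.850 in stimulated libraries and reached 1.34 in unstimulated ones, and without them the median gene lay at -0.60 (log2) for stimulation with Compound 10 and at -0.83 for stimulation under vehicle, so stimulation effects are relative to the median gene. In these bulk libraries, fewer cells making an RNA and less RNA per cell cannot be told apart.

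Stimulation raised most of these genes. With Compound 10, 6 of the 9 genes that could be tested rose (Batf, Atf3, Crem, Maff, Bach1 and Nfil3) and Mafg fell, which makes 7 called genes, against 26.5% of all genes tested (12.8% higher and 13.7% lower). Without TMM scaling 810 genes were called higher and 5219 lower there. Under vehicle, 7 of 9 rose (Batf, Atf3, Crem, Maff, Mafk, Bach1 and Nfil3) and none fell, against 39.0% of all genes tested (19.5% higher and 19.4% lower), and without scaling 1202 genes were called higher and 6610 lower. The median log2 change of the 9 genes was 1.21 with Compound 10 and 1.51 under vehicle, while the median of all genes tested was -0.01 and -0.06. Compound 10 calls were made for 5 of the 9 genes across both states. The share of all genes called in either state was not counted. In stimulated cells Maff was higher and Mafk lower with the compound, 2 of 9 genes against 23.2% of all genes (10.4% higher and 12.8% lower), and in unstimulated cells Nfil3 and Cebpb were higher and Atf3 lower, 3 of 9 against 8.43% (4.65% higher and 3.78% lower). The stimulated count was 0 without either stimulated vehicle library and without the first or the third stimulated Compound 10 library, and 6 in a fit of those 2 groups alone. The unstimulated count was 0 in a fit of its 2 groups alone and 5 with a block by index run. The stimulation effect itself differed between Compound 10 and vehicle for Bach1, 1 of 9 against 6.63% (4.08% lower). Of all Compound 10 calls in stimulated cells 44.8% were higher, against 57.8% with upper-quartile factors, and of the interaction calls 38.5%, against 50.9%. Without scaling, 470 genes were called higher and 637 lower for Compound 10 in unstimulated cells, and 527 higher and 314 lower for the interaction. These comparisons share libraries with each other, and a count of 9 chosen genes near the background share is not a property of these genes. The genes here and the gene lists further on were chosen with earlier results of these data known. A count above the background share is therefore not independent evidence about them.

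**Figure D1:**
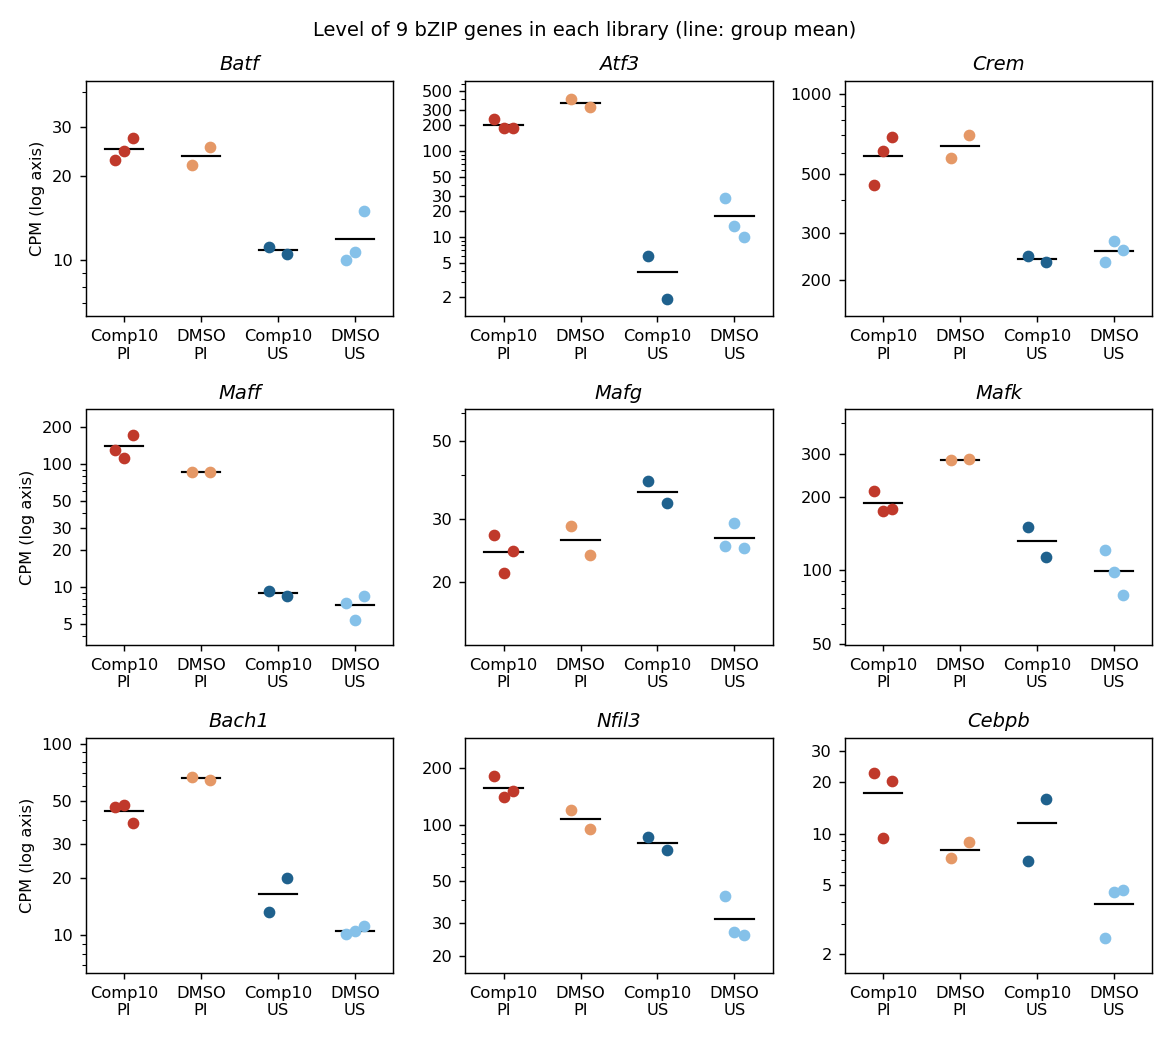
Level of the 9 testable bZIP genes in each library, as TMM-scaled CPM on a log axis, with 1 point per library and a line at each group's mean (Comp10 is Compound 10, DMSO is vehicle, PI is PMA plus ionomycin and US is unstimulated). Atf3, Maff, Bach1 and Nfil3 fall into 4 levels that do not overlap between groups, while Batf and Crem separate stimulated from unstimulated libraries and overlap between Compound 10 and vehicle. Groups that do not overlap are not thereby called. The Compound 10 differences of Atf3 and Nfil3 in stimulated cells, of Maff in unstimulated cells and of Bach1 in both states were not called.

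Batf (chr12:85686669-85709087, plus strand of mm10), the AP-1 partner that licenses IRF4-dependent T cell programmes, was at 22.9, 24.7 and 27.4 CPM in stimulated Compound 10 cells and at 21.9 and 25.4 CPM in stimulated vehicle cells. It was at 11.1 and 10.5 CPM in unstimulated Compound 10 cells and at 10.0, 10.7 and 14.97 CPM in unstimulated vehicle cells. All 5 stimulated libraries lay above all 5 unstimulated ones, and the compound and vehicle libraries overlapped in both states. Batf rose with stimulation by 1.21 ± 0.22 (log2 ± SE, adjusted p = 0.00211 by edgeR) with Compound 10 and by 0.99 ± 0.21 (adjusted p = 0.00309) under vehicle. The Compound 10 difference was 0.08 in stimulated cells (95% interval -0.39 to 0.55) and -0.14 in unstimulated cells (-0.61 to 0.33), so a change as large as the stimulation effect lies outside both intervals. The vehicle rise of Batf was lost without TMM scaling (0.22, adjusted p = 0.422). Batf3 (chr1:191097847-191108945, plus strand), the close relative of Batf known from dendritic cells, had 1 count in all 10 libraries together, in a stimulated vehicle library, and was not tested. A count of 0 allows up to 0.0937 CPM in the stimulated Compound 10 group and up to 0.0402 CPM in the unstimulated vehicle group, by the floor of 3 counts over a group, which covers counting error only.

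Atf3 (chr1:191170296-191218039, minus strand), a stress- and signal-induced repressor that dimerises at CRE and AP-1 type sites, showed the widest range of the 10. It was at 232, 184 and 184 CPM in stimulated Compound 10 cells and at 403 and 320 CPM in stimulated vehicle cells. It was at 5.94 and 1.91 CPM in unstimulated Compound 10 cells and at 28.5, 13.6 and 10.0 CPM in unstimulated vehicle cells. The 4 groups did not overlap, and in both states each Compound 10 library lay below each vehicle library. Stimulation raised Atf3 by 5.76 ± 0.58 with Compound 10, a 54.2-fold difference (adjusted p = 4.42e-05), and by 4.39 ± 0.46 under vehicle, a 20.98-fold difference (adjusted p = 2.32e-05). In stimulated cells the Compound 10 difference was -0.86 ± 0.42, which did not pass (adjusted p = 0.171, interval -1.78 to 0.07). In unstimulated cells Atf3 was 4.68-fold lower with Compound 10 (-2.23 ± 0.50, adjusted p = 0.0237). The stimulation effects differed by 1.37 ± 0.65, which did not pass either (adjusted p = 0.247). The stimulated difference passed in 2 of 18 alternatives, without the filter on low counts and in a fit of those 2 groups alone (adjusted p = 0.000473 and 0.00157), and the difference of stimulation effects passed in 2 of 17, among them the fit without the filter (1.40, adjusted p = 0.000361). The unstimulated call rested on single libraries, since it was lost without the first unstimulated vehicle library (-1.66, adjusted p = 0.0524) and when the second Compound 10 library of that state was left out (-1.53, adjusted p = 0.162), and in a fit of those 2 groups alone (adjusted p = 0.122). Within the runs of index numbers that the libraries carry, the Compound 10 difference in stimulated cells was -0.80 in each of 2 runs, and in unstimulated cells it was -1.18 and -2.33.

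Crem (chromosome 18, minus strand) encodes CRE-binding activators and repressors from its upstream starts and ICER, the inducible cAMP early repressor that lacks the activation domain, from an intronic start. Crem had the highest level per length of the 10 genes in every group, with mean TPM (a level per transcript length) of 898 in stimulated Compound 10 cells, 944 in stimulated vehicle cells, 527 in unstimulated Compound 10 cells and 627 in unstimulated vehicle cells. Gene counts were 455, 610 and 689 CPM in stimulated Compound 10 cells and 573 and 697 CPM in stimulated vehicle cells, against 246 and 234 CPM in unstimulated Compound 10 cells and 233, 281 and 260 CPM in unstimulated vehicle cells. Stimulated and unstimulated libraries did not overlap, and Compound 10 and vehicle libraries did. Crem rose by 1.28 ± 0.19 with Compound 10 (adjusted p = 0.000608) and by 1.30 ± 0.18 under vehicle (adjusted p = 0.000185). Its Compound 10 difference was -0.12 in stimulated cells (interval -0.52 to 0.28) and -0.10 in unstimulated cells (-0.51 to 0.30), and the first was 0.01 with upper-quartile scaling.

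The 39 Crem transcripts in the files begin in 6 clusters along the gene, and the 13 that begin past its midpoint include the ICER-type transcripts. Their share of Crem counts was 76.2%, 75.0% and 76.5% in stimulated Compound 10 cells and 78.9% and 77.2% in stimulated vehicle cells. It was 78.7% and 67.9% in unstimulated Compound 10 cells and 81.3%, 79.6% and 78.8% in unstimulated vehicle cells. Transcripts from the downstream starts thus held most Crem counts in all 10 libraries, stimulated or not, and the second unstimulated Compound 10 library stood lowest. In that library 1153 counts were assigned to 1 upstream-start transcript, ENSMUST00000140912, annotated as a processed transcript and not as protein-coding. It had 154 counts in the third unstimulated vehicle library, 78.0 in the second stimulated Compound 10 library and 0 in all others. The share without this transcript was not computed. The share differed by 0.34 percentage points with stimulation (exact permutation test within treatment, two-sided p = 0.94) and by -4.36 percentage points with Compound 10 (exact permutation test within stimulation state, two-sided p = 0.01, the smallest that 100 arrangements allow). Without the second unstimulated Compound 10 library the compound difference was -1.67 points (exact p = 0.1). With the share taken from TPM it was -2.45 points (exact p = 0.05). Read sharing by kallisto among these overlapping transcripts was not modelled in either test.

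**Figure D2:**
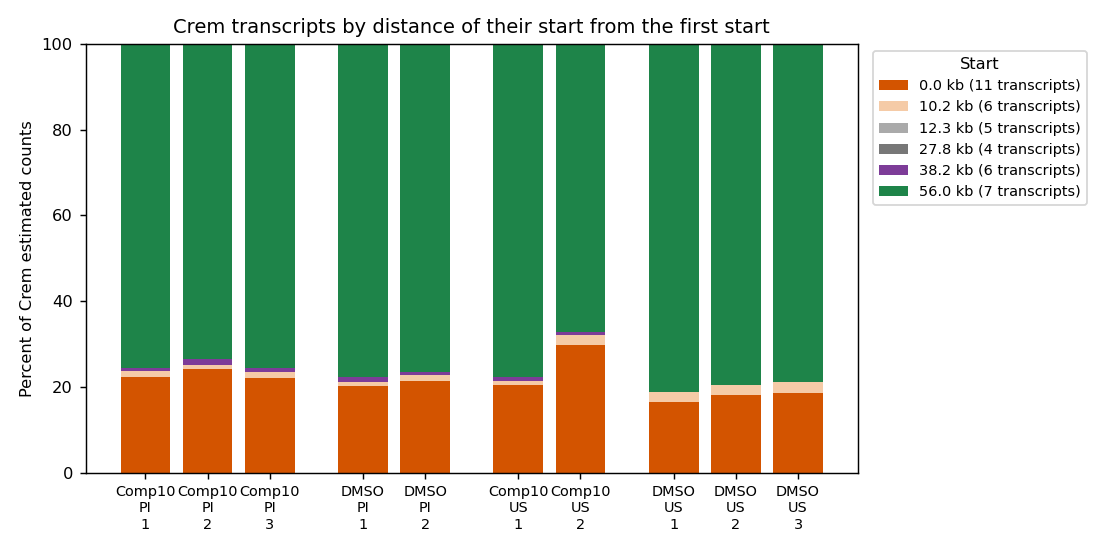
Share of Crem estimated counts in each library (percent, 1 bar per library) by the cluster in which a transcript begins, given in kb from the gene's first start. The most downstream cluster holds the largest part of every bar, and its lowest share is in the second unstimulated Compound 10 library.

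Of the 39 Crem transcripts, 13 could be tested singly, in an edgeR fit over 37354 transcripts. With Compound 10, 5 Crem transcripts were called after stimulation, against 7.21% of transcripts, and 7 were called under vehicle, against 15.1%. In stimulated cells 0 Crem transcripts were called for Compound 10 by edgeR (1 had an unadjusted p under 0.05), against 4.92% of transcripts, and in unstimulated cells 1 was called, against 0.284%. For the interaction 0 were called (2 had an unadjusted p under 0.05), against 0.340%. The transcript called in unstimulated cells, ENSMUST00000122958, belongs to the start cluster 38189 bases into the gene. That cluster held 21.3, 100 and 66.1 counts in stimulated Compound 10 cells, 53.2 and 53.9 in stimulated vehicle cells, 39.1 and 75.0 in unstimulated Compound 10 cells and 0, 1.80 and 1.05 in unstimulated vehicle cells. The unstimulated vehicle libraries were thus near 0 there, while the other 3 groups overlapped. These are estimated counts without scaling, and the transcript's call (adjusted p = 0.0389) was lost in 9 of the 10 fits that left out 1 library, all but the fit without the first stimulated Compound 10 library. Crem also overlaps exons of Gm6225 on the opposite strand, which rose with stimulation by 1.47 with Compound 10 and by 1.65 under vehicle.

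The small MAF genes moved apart. Maff (chr15:79346621-79359076, plus strand) was at 131, 113 and 174 CPM in stimulated Compound 10 cells and at 86.1 and 86.6 CPM in stimulated vehicle cells. It was at 9.32 and 8.54 CPM in unstimulated Compound 10 cells and at 7.39, 5.41 and 8.43 CPM in unstimulated vehicle cells. The 4 groups did not overlap, with the gap between the unstimulated groups the narrowest. Maff rose 15.6-fold with stimulation under Compound 10 (3.97 ± 0.26, adjusted p = 2.19e-06) and 12.1-fold under vehicle (3.60 ± 0.23, adjusted p = 5.58e-07). In stimulated cells it was higher with Compound 10 by 0.69 ± 0.22 (adjusted p = 0.0414), and in unstimulated cells the difference was 0.33 ± 0.23 (adjusted p = 0.432). The call in stimulated cells was lost in 7 of 18 alternatives, among them the fits without either stimulated vehicle library, the first or the third stimulated Compound 10 library, the first unstimulated vehicle library or the second unstimulated Compound 10 library, with the difference between 0.50 and 0.82 in all 18.

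Mafk (chr5:139791513-139802653, plus strand) went the other way in stimulated cells. It was at 211, 175 and 179 CPM in stimulated Compound 10 cells and at 283 and 285 CPM in stimulated vehicle cells, against 150 and 113 CPM in unstimulated Compound 10 cells and 121, 98.3 and 79.1 CPM in unstimulated vehicle cells. The stimulated groups did not overlap, and the unstimulated groups did. Mafk rose with stimulation under vehicle (1.51 ± 0.19, adjusted p = 9.57e-05), while with Compound 10 the change of 0.52 ± 0.20 did not pass (adjusted p = 0.0756). That change passed in 4 of 18 alternatives (0.43 to 0.62), among them upper-quartile factors, a block by index run and the fit without the third unstimulated vehicle library (adjusted p = 0.0331), and it was -0.08 without scaling. Mafk was lower with Compound 10 in stimulated cells by -0.59 ± 0.19 (adjusted p = 0.0446), a call lost in 8 of 18 alternatives, with values from -0.68 to -0.46, among them every fit without a stimulated library and the fit without the second unstimulated vehicle library. The difference between the stimulation effects, -0.997 ± 0.27, narrowly missed the threshold (adjusted p = 0.0516) and passed it in 6 of 17 alternatives, among them DESeq2 (adjusted p = 0.0132), the block by index run (adjusted p = 0.00665) and the fits without the first or the third unstimulated vehicle library. Mafk overlaps Tmem184a on the opposite strand, and that gene stayed at or below 1.11 CPM in the group means.

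Mafg (chr11:120625117-120633600, minus strand) had the narrowest range of group means of the 9 tested genes. It was at 27.1, 21.2 and 24.4 CPM in stimulated Compound 10 cells, 28.8 and 23.8 CPM in stimulated vehicle cells, 38.4 and 33.5 CPM in unstimulated Compound 10 cells and 25.3, 29.4 and 24.96 CPM in unstimulated vehicle cells. The unstimulated Compound 10 libraries stood above the other 8. Mafg fell by 0.57 (SE 0.18) on the log2 scale with stimulation under Compound 10 (adjusted p = 0.0362), and its change under vehicle was -0.01 ± 0.18 (-0.80 and called without scaling). The fall was lost in 6 of 18 alternatives, among them the fits without either unstimulated Compound 10 library and without the second or the third stimulated Compound 10 library. Mafg shares exon sequence with Sirt7 on the same strand, and Sirt7 also fell with stimulation under Compound 10 (-0.72, adjusted p = 0.0122).

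Per length, the summed small MAF level was 164, 152 and 174 TPM in stimulated Compound 10 cells and 161 and 163 TPM in stimulated vehicle cells, against 117 and 80.7 TPM in unstimulated Compound 10 cells and 96.0, 84.3 and 61.3 TPM in unstimulated vehicle cells. These TPM carry no TMM scaling, so differences between stimulated and unstimulated sums are not on the footing of the CPM above. Mafk with Compound 10 averaged 73.9 TPM stimulated and 77.4 TPM unstimulated, against 188 and 131 CPM. Under vehicle it averaged 105 TPM stimulated and 63.6 TPM unstimulated, against 284 and 99.3 CPM. The sums of the stimulated groups overlapped, but their make-up did not. Maff held 46.4%, 47.6% and 57.4% of the sum in stimulated Compound 10 cells and 29.3% and 30.5% in stimulated vehicle cells. It held 7.58% and 8.87% in unstimulated Compound 10 cells and 7.60%, 6.65% and 11.96% in unstimulated vehicle cells. Mafk was the main small MAF in unstimulated cells and in stimulated vehicle cells (64.5% and 65.9% in the latter). In stimulated Compound 10 cells Mafk held 49.5%, 48.4% and 38.6%.

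**Figure D3:**
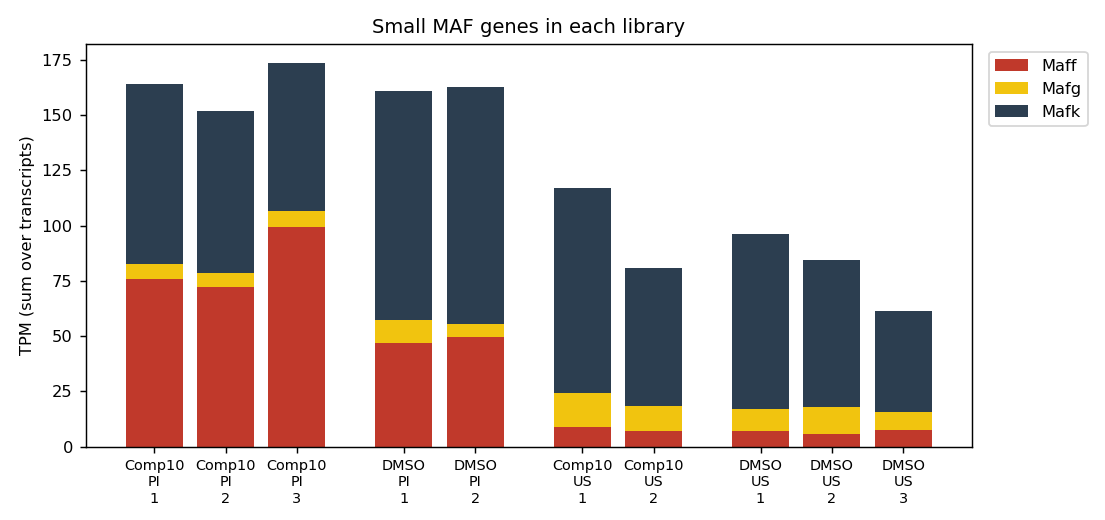
Level of Maff, Mafg and Mafk in each library in TPM without TMM scaling, stacked, so that bar height is the summed small MAF level. The stimulated bars are of like height with Compound 10 and with vehicle, and the Maff part is larger in the 3 Compound 10 bars (46.4% to 57.4%) than in the 2 vehicle bars (29.3% and 30.5%).

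Bach1 (chr16:87698945-87733346, plus strand), the haem-regulated repressor that pairs with small MAFs at sites of antioxidant genes, was at 46.9, 48.1 and 38.6 CPM in stimulated Compound 10 cells and at 67.0 and 64.8 CPM in stimulated vehicle cells. It was at 13.2 and 19.8 CPM in unstimulated Compound 10 cells and at 10.1, 10.5 and 11.1 CPM in unstimulated vehicle cells. The 4 groups did not overlap, and Compound 10 libraries lay below vehicle libraries when stimulated and above them when unstimulated. Bach1 rose 2.68-fold with stimulation under Compound 10 (1.42 ± 0.20, adjusted p = 0.000499) and 6.21-fold under vehicle (2.63 ± 0.20, adjusted p = 1.87e-06). The stimulation effect was smaller with Compound 10 by 1.21 on the log2 scale (interaction -1.21 ± 0.27, adjusted p = 0.0258). Neither Compound 10 difference passed by itself, at -0.57 ± 0.19 in stimulated cells (adjusted p = 0.0546) and 0.65 ± 0.20 in unstimulated cells (adjusted p = 0.0652). The stimulated difference passed in 7 of 18 alternatives, among them DESeq2 (adjusted p = 0.0222) and the fits without the third unstimulated vehicle library or either unstimulated Compound 10 library. The unstimulated difference passed in 3 of 18, with DESeq2 (adjusted p = 0.0299), with the block by index run and without the first unstimulated Compound 10 library (0.90, adjusted p = 0.0363). The interaction kept its sign in all 17 alternatives, from -1.46 to -0.90, and lost the call in 6, among them the fits without either stimulated vehicle library, without the second unstimulated library of either treatment and without the first stimulated Compound 10 library.

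Among the genes known as targets of BACH1, small MAFs or NRF2, 15 of the 18 listed could be tested. With stimulation, 6 of 15 rose and 0 fell with Compound 10 (12.8% and 13.7% of all genes), and 7 rose and 1 fell under vehicle (19.5% and 19.4% of all genes). The list's median log2 change was 0.59 and 0.54, while over all genes it was -0.01 and -0.06. Compound 10 raised 1 and lowered 4 in stimulated cells (10.4% and 12.8% of all genes), and raised 1 and lowered 1 in unstimulated cells (4.65% and 3.78% of all genes). Hmox1, the haem oxygenase that BACH1 represses, averaged 3.82 ± 1.17 CPM in stimulated Compound 10 cells and 15.3 ± 0.09 CPM in stimulated vehicle cells (SD), and it was lower with Compound 10 by -1.999 ± 0.35 (adjusted p = 0.0018). It averaged 1.40 ± 0.62 CPM in unstimulated Compound 10 cells and 1.08 ± 0.13 CPM in unstimulated vehicle cells. Hmox1 rose with stimulation by 1.40 ± 0.38 with Compound 10 and by 3.80 ± 0.36 under vehicle, and these effects differed (interaction -2.40 ± 0.51, adjusted p = 0.0189). Bach1 and Hmox1 thus both rose in both arms and less with Compound 10. Srxn1, a sulfiredoxin, was lower with Compound 10 in stimulated cells (-3.89 ± 0.97, adjusted p = 0.0133 by edgeR). It held only 6 counts over the stimulated Compound 10 libraries and 57 over the stimulated vehicle libraries, on average 0.183 and 2.85 CPM. At counts this low the SE is too small. G6pdx, which makes NADPH, was lower as well (-0.66 ± 0.15, adjusted p = 0.00805 by edgeR). Slc48a1, a haem transporter, was higher with Compound 10 in stimulated (1.14 ± 0.23) and in unstimulated cells (0.88 ± 0.22).

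Nfil3 (chr13:52967209-52981073, minus strand) was at 182, 140 and 152 CPM in stimulated Compound 10 cells and at 121 and 94.6 CPM in stimulated vehicle cells. It was at 86.7 and 73.7 CPM in unstimulated Compound 10 cells and at 41.6, 27.0 and 25.9 CPM in unstimulated vehicle cells. The 4 groups did not overlap, and Compound 10 libraries lay above vehicle libraries in both states. Nfil3 was 2.55-fold higher with Compound 10 in unstimulated cells (1.35 ± 0.22, adjusted p = 0.00579), while in stimulated cells the difference of 0.55 ± 0.23 did not pass (adjusted p = 0.102). The stimulated difference passed in 6 of 18 alternatives (0.58 to 0.69), among them upper-quartile factors, no scaling, no filter and the block by index run (adjusted p = 0.00443). Nfil3 rose with stimulation by 0.98 ± 0.23 with Compound 10 (adjusted p = 0.00862) and 3.42-fold under vehicle (1.78 ± 0.22, adjusted p = 8.80e-05), and the difference of these effects, -0.80 ± 0.31, did not pass (adjusted p = 0.157) but passed with the block by index run and without the first unstimulated vehicle library (-1.07, adjusted p = 0.0453). Within index runs the Compound 10 difference was 0.59 and 0.57 in stimulated and 1.68 and 1.51 in unstimulated cells. The unstimulated call was lost in 1 of 18 alternatives, a fit of those 2 groups alone (1.36, adjusted p = 0.0548). The call for the stimulation rise of Nfil3 in Compound 10 cells was lost without TMM scaling (0.38) and without the second unstimulated Compound 10 library.

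Of 14 listed genes of NFIL3 and the circadian clock, all tested, Compound 10 raised 4 and lowered 0 in stimulated cells (10.4% and 12.8% of all genes) and raised 5 and lowered 0 in unstimulated cells (4.65% and 3.78% of all genes). The list's median was 0.29 in stimulated and 0.62 in unstimulated cells, while over all genes it was 0.04 and 0.002. Dbp, the PAR-type activator that reads the same D-box as NFIL3, averaged 5.36 ± 1.13 CPM in stimulated Compound 10 cells and 0.819 ± 0.066 CPM in stimulated vehicle cells (2.69 ± 0.36, adjusted p = 0.000398). Per1, a clock repressor, was higher with Compound 10 in unstimulated cells (0.98 ± 0.19, adjusted p = 0.0114), as was Nr1d1, the nuclear receptor REV-ERBα (1.51 ± 0.24, adjusted p = 0.00513). With stimulation, 3 of the 14 rose and 2 fell with Compound 10 (26.5% of all genes called), and 7 rose and 5 fell under vehicle (39.0% of all genes called). Bhlhe40, a clock repressor induced in activated T cells, rose in both arms (4.45 ± 0.43 with Compound 10 and 4.34 ± 0.39 under vehicle).

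Cebpb (chr2:167688915-167690418, plus strand) was at 22.4, 9.43 and 20.1 CPM in stimulated Compound 10 cells and at 7.21 and 8.92 CPM in stimulated vehicle cells. It was at 6.96 and 15.9 CPM in unstimulated Compound 10 cells and at 2.46, 4.57 and 4.70 CPM in unstimulated vehicle cells. Compound 10 libraries lay above vehicle libraries in both states, with wide spread in the Compound 10 groups. Cebpb was higher with Compound 10 in unstimulated cells by 1.55 ± 0.43 (adjusted p = 0.0467), and in stimulated cells the difference of 1.09 ± 0.45 did not pass (adjusted p = 0.107). The unstimulated call was lost in 9 of 18 alternatives, with values from 0.83 to 2.01, among them the fits without the second unstimulated Compound 10 library without the first or the second unstimulated vehicle library, without either stimulated vehicle library and without the first or the third stimulated Compound 10 library. Stimulation changes were 0.58 ± 0.43 with Compound 10 and 1.04 ± 0.44 under vehicle, and neither passed. The vehicle change passed in 4 of 18 alternatives and the stimulated Compound 10 difference in 3 of 18, among them the fit without the second stimulated Compound 10 library (1.39, adjusted p = 0.0464). Cebpb overlaps an exon of Tmem189 on the opposite strand, which averaged 24.3, 19.4, 29.3 and 20.1 CPM in stimulated Compound 10, stimulated vehicle, unstimulated Compound 10 and unstimulated vehicle cells and was called in none of the 5 comparisons. Because C/EBPβ is a myeloid factor, the 10 myeloid markers are given here. They summed to 3.36 and 4.36 CPM in unstimulated Compound 10 cells and to 1.75, 3.13 and 2.20 CPM in unstimulated vehicle cells, by library total. Of the 3 that could be tested, Fcgr3 was higher with Compound 10 in unstimulated cells (2.20 CPM with Compound 10 and 0.249 CPM with vehicle, adjusted p = 0.0377). Csf1r (0.521 CPM with Compound 10 and 0.793 CPM with vehicle) and Itgam (0.931 CPM with Compound 10 and 0.405 CPM with vehicle) were not called. Lyz2 and Adgre1 were at 0 in unstimulated Compound 10 cells and at 0.292 and 0.179 CPM in unstimulated vehicle cells, and S100a9 was at 0 in all libraries. Cd14 and Fcer1g were also lower in unstimulated Compound 10 cells (0.0800 and 0.0400 CPM) than in unstimulated vehicle cells (0.132 and 0.288 CPM). Tyrobp and S100a8 were at 0.0400 and 0.0451 CPM with Compound 10 and at 0.0208 and 0 CPM with vehicle. The part of these markers in the Cebpb difference was not tested.

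**Figure D4:**
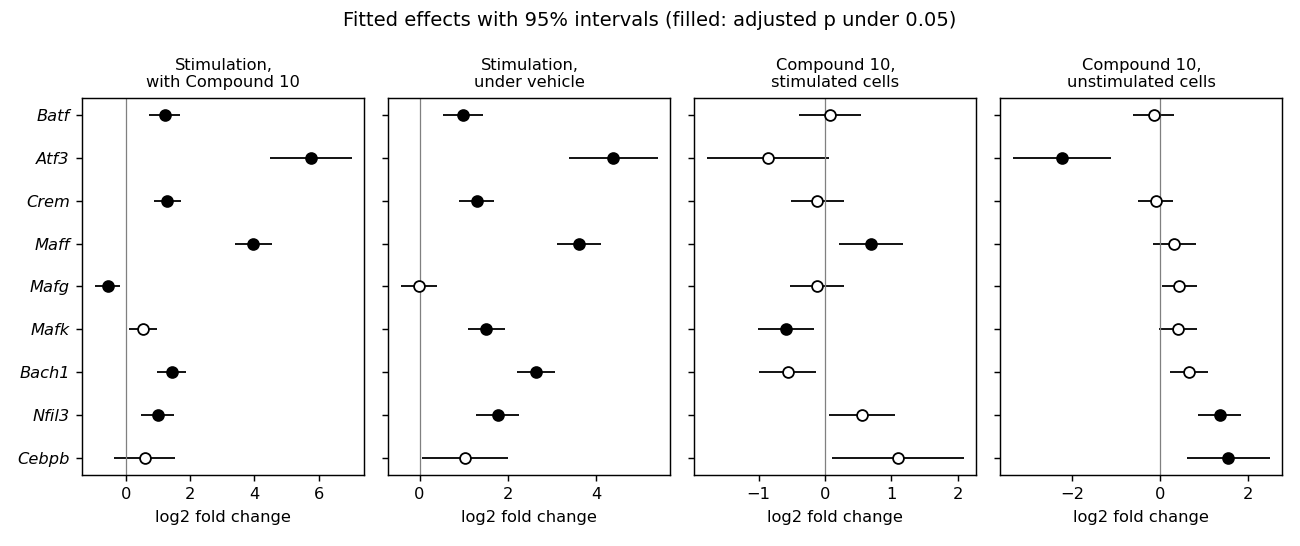
Log2 differences of the 9 testable genes in the 4 comparisons of stimulation and of Compound 10, with points for the estimate and bars for the 95% interval, and filled points for an adjusted p under 0.05. Stimulation effects reach 5.76 for Atf3 with Compound 10 and 4.39 under vehicle, and Compound 10 effects lie between -2.23 (Atf3, unstimulated) and 1.55 (Cebpb, unstimulated).

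The partners and known targets of the other factors give the setting of these changes. Of the 14 listed partners and targets of BATF, 8 were tested. With stimulation 5 rose with Compound 10 and 6 under vehicle, and 0 fell in either arm, where 12.8% and 19.5% of all genes rose. The list's median change was 1.86 with Compound 10 and 3.30 under vehicle. Irf4, the partner of BATF at composite sites, averaged 580 ± 135 CPM in stimulated Compound 10 cells and 862 ± 64.3 CPM in stimulated vehicle cells, against 8.91 ± 3.12 CPM in unstimulated Compound 10 cells and 7.20 ± 2.73 CPM in unstimulated vehicle cells. Its Compound 10 difference in stimulated cells, -0.57 ± 0.31, did not pass (adjusted p = 0.21). Tnfrsf9, the costimulatory receptor 4-1BB, was lower with Compound 10 in stimulated cells (-1.77 ± 0.19, adjusted p = 0.000141) and higher in unstimulated cells (0.87 ± 0.21, adjusted p = 0.0274), at 23.9 ± 2.19 CPM in stimulated Compound 10 cells and 81.4 ± 2.18 CPM in stimulated vehicle cells. Icos, another costimulatory receptor, was lower with Compound 10 in stimulated cells (-0.82 ± 0.17, adjusted p = 0.00515). In unstimulated cells Bcl6 and Prdm1, opposing repressors of helper T cell fate, were both higher with Compound 10 (1.69 ± 0.36 and 1.44 ± 0.34), and 4 of the 8 genes were higher there while 0 were lower (4.65% and 3.78% of all genes). In stimulated cells 0 of the 8 were higher and 2 lower (10.4% and 12.8% of all genes).

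Of 16 listed stress genes of the ATF3 and ATF4 response, 13 were tested. With stimulation 3 rose and 1 fell with Compound 10 (12.8% and 13.7% of all genes), and 9 rose and 1 fell under vehicle (19.5% and 19.4% of all genes). The list's median change was 0.50 and 1.02. In stimulated cells Compound 10 raised 4 and lowered 4 of the 13 (23.2% of all genes called), and in unstimulated cells it raised 1 and lowered 2 (8.43% of all genes called). Cars, a cysteinyl-tRNA synthetase, averaged 45.8 ± 12.5 CPM in stimulated Compound 10 cells and 236 ± 17.0 CPM in stimulated vehicle cells (-2.36 ± 0.22, adjusted p = 7.02e-05). Phgdh and Shmt2, enzymes of serine and folate metabolism, were lower as well (-0.85 ± 0.17 and -1.21 ± 0.25), while Ddit4, an inhibitor of mTORC1 signalling, was 2.30-fold higher. Of 16 cAMP or CREB target genes, the kind CREM and ICER act on, 15 were tested, and stimulation raised 12 with Compound 10 and 12 under vehicle and lowered 0 and 1 (26.5% and 39.0% of all genes called). The list's median change was 1.95 with Compound 10 and 2.17 under vehicle. Compound 10 raised 1 and lowered 3 in stimulated cells (23.2% of all genes called) and raised 2 and lowered 0 in unstimulated cells (8.43% of all genes called). Nr4a3, an orphan nuclear receptor of early activation, averaged 2237 ± 96.0 CPM in stimulated Compound 10 cells and 4615 ± 769 CPM in stimulated vehicle cells (-1.04 ± 0.19, adjusted p = 0.00276), and Rgs2, a regulator of G protein signalling, was also lower (-0.74 ± 0.17, adjusted p = 0.00752). The phosphodiesterase genes Pde4d and Pde4b, which break down cAMP, went opposite ways (0.96 ± 0.20 and -0.59 ± 0.15).

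Of the 37 other bZIP genes listed, 26 were tested. With stimulation 5 rose and 4 fell with Compound 10 (26.5% of all genes called), and 10 rose and 5 fell under vehicle (39.0% of all genes called). Compound 10 raised 6 and lowered 3 in stimulated cells (23.2% of all genes called) and raised 3 and lowered 1 in unstimulated cells (8.43% of all genes called). Crebrf, a regulator of the unfolded protein response, averaged 46.2 ± 5.56 CPM in stimulated Compound 10 cells and 12.1 ± 0.22 CPM in stimulated vehicle cells (1.93 ± 0.17, adjusted p = 5.44e-05). Creb1, the CRE-binding activator that CREM and ICER compete with, averaged 284 ± 19.2 CPM in stimulated Compound 10 cells and 133 ± 9.38 CPM in stimulated vehicle cells (1.10 ± 0.15, adjusted p = 0.000444). Xbp1, a factor of the unfolded protein response, was higher with Compound 10 in stimulated (0.87 ± 0.14) and unstimulated cells (0.56 ± 0.13). Atf5 was lower with Compound 10 in unstimulated cells (-1.80 ± 0.38, adjusted p = 0.018), and its group means were 1.25 ± 0.07 CPM in stimulated Compound 10 cells, 5.86 ± 0.09 CPM in stimulated vehicle cells, 1.501 ± 0.13 CPM in unstimulated Compound 10 cells and 5.24 ± 1.996 CPM in unstimulated vehicle cells. All 7 Fos and Jun genes were tested, and 6 rose and 0 fell with stimulation in each arm (12.8% of all genes rose with Compound 10 and 19.5% under vehicle). Junb was higher with Compound 10 in stimulated (1.196 ± 0.17) and unstimulated cells (0.92 ± 0.16), and the other 6 were not called for Compound 10 in either state.

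**Figure D5:**
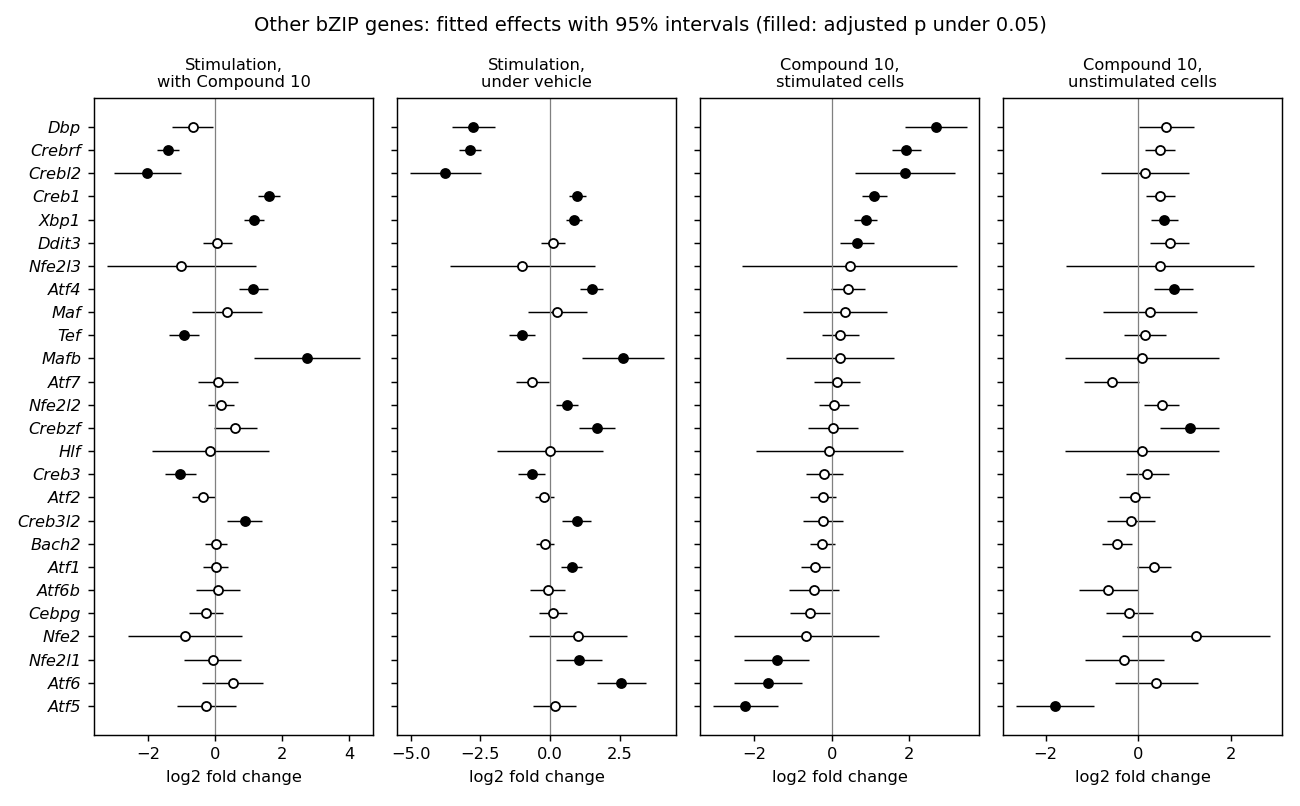
Log2 differences of the 26 other bZIP genes tested, in the 4 comparisons of stimulation and of Compound 10, with bars for the 95% interval and filled points for an adjusted p under 0.05. Crebrf, Creb1 and Xbp1 lie above 0 for Compound 10 in stimulated cells, with filled points at 1.93, 1.10 and 0.87.

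Genes whose profile over the 10 libraries lay closest to each member were found among 7454 genes by the root mean square of the difference of centred log2 CPM. The nearest to Atf3 were Egr2 (0.584) and Pou2af1 (0.630), which are larger distances than for any other member. The Atf3 profile also spread widest, with a root mean square of 2.61 around its mean, against 0.239 (Mafg) to 1.96 (Maff) for the others. Maff was nearest to Fam110a (0.251) and Cd69 (0.281), Bach1 to Tiparp (0.156) and Coq10b (0.157), and Mafk to Brd2 (0.130) and Nedd9 (0.144). Batf was nearest to Zfp330 (0.171) and Cnbp (0.179), Mafg to Epc2 (0.137) and Rhoh (0.151), Nfil3 to Tedc1 (0.180) and Mpzl3 (0.214), Crem to Slc16a10 (0.153) and Agfg1 (0.173), and Cebpb to Ing2 and D16Ertd472e (0.382 each). A gene that varies little has near neighbours by this measure for that reason alone. Per length, Crem was followed in stimulated Compound 10 cells by Atf3 at 116 TPM, Nfil3 at 89.2 TPM, Maff at 82.7 TPM and Mafk at 73.9 TPM, and in stimulated vehicle cells by Atf3 at 197 TPM, Mafk at 105 TPM, Nfil3 at 57.0 TPM and Maff at 48.3 TPM.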

How the data were processed

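RNA of 10 libraries was analysed. Per the labels' protocols, libraries were made with a SMART-seq kit, which does not mark strand. Per the submitters' processing notes the authors used cutadapt, kallisto and mm10, and versions and annotation behind the transcripts were not stated in the sources used. The authors deposited 1 table per library with estimated counts, TPM, length and effective length per transcript, per the file headers. Kallisto shares reads among similar transcripts, so values of overlapping transcripts are uncertain. The deposited TPM, which carry no TMM scaling, served to compare levels between genes, for the small MAF sums and for 1 setting of the Crem share.

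Transcripts were matched to GENCODE M21 without version (1403 of 109617 unmatched, with 0.507% to 0.671% of counts). The estimated counts of a gene's transcripts were added up and rounded to whole numbers. Libraries held 10694591 to 33486259 counts. All 10 libraries entered 1 edgeR 4.0.16 fit (R 4.3.3, limma 3.58.1) with TMM factors and the filterByExpr filter, which left 14417 genes, and the quasi-likelihood test with Benjamini-Hochberg adjustment gave calls at 0.05. SEs came from the estimate and its F statistic and are too small for large changes of low counts. No 2 libraries of a group agreed within sampling noise (chi-square per degree of freedom at least 13.7). Code for the tests was checked on simulated data. Alternatives were other scaling, no filter, DESeq2 1.42.0, fits of 2 groups, blocks by replicate number or index run, and each library left out. The index numbers, in runs of 13 to 16, 19 to 22 and 25 to 29, are carried with the libraries and may not be a batch.

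The members and gene lists were chosen with earlier results of these data known. From each list, up to 4 genes with the lowest adjusted p per comparison could be named, and members and genes that overlap their exons were all described. Myeloid markers were named after their values were seen. TPM and transcript counts come from the deposited tables, and sequences from RefSeq.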

Additional observations from a re-analysis of the deposited data

Results flagged for a closer look

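Results are listed here because the Compound 10 effect differed between stimulated and unstimulated cells by a test of that difference, the interaction in the edgeR fit with Benjamini-Hochberg adjusted p under 0.05. Among the 10 bZIP genes this was so for Bach1, at -1.21 (log2). Among the other listed genes the interaction was positive for Crebrf at 1.47 and for Dbp at 2.09, so the Compound 10 difference was more positive in stimulated cells. Negative values were found for the costimulatory receptors Icos at -1.32 and Tnfrsf9 at -2.64 and for Hmox1 at -2.40. Of the 13 tested stress genes 3 were called, Psat1 at -1.25, Cars at -1.51 and Cth at -3.32, and Cth was at 0.130 CPM in unstimulated vehicle cells. Of the 14 clock genes 3 were called, Dbp above and Per1 at -1.24 and Nr1d1 at -2.22. Of the 15 tested cAMP targets 4 were called, Per1 again, Nr4a3 at -1.05, Sik1 at -1.09 and Rgs2 at -1.02. Of all genes tested, 6.63% were called for the interaction.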

How the results depend on the processing

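Of the settings tried for single members, 691 gave the same direction and side of the threshold, 41 gained a call, 43 lost one and 26 changed sign. The stimulation calls of Atf3, Maff, Bach1 and Crem in both arms, of Batf with Compound 10 and of Mafk and Nfil3 under vehicle held in all 18 alternatives. Stimulation with Compound 10 gave 6029 called genes without scaling. The Compound 10 effect in unstimulated cells gave 1888 called genes with DESeq2, 122 in a fit of the 2 groups alone and 2403 with a block by index run. The interaction gave 1448 called genes without the filter, 1671 with DESeq2, 1504 with the replicate block and 2167 with the index run block. The number of the 10 genes called for the interaction was 0 without scaling, 3 without the filter, 2 with DESeq2, 3 with the replicate block and 3 with the run block. In stimulated cells Compound 10 called 5 without the filter, 6 in the 2-group fit and 4 with the run block, and in unstimulated cells 0 in the 2-group fit and 5 with the run block.

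Upper-quartile factors put 57.8% of Compound 10 calls in stimulated cells higher, against 44.8% with TMM, and 50.9% of interaction calls, against 38.5%. Values that changed sign were not called before or after the change. With upper-quartile factors the Compound 10 difference in stimulated cells was 0.0146 for Mafg and 0.0150 for Crem and the Crem interaction 0.0793. Without scaling, stimulation with Compound 10 was -0.0809 for Mafk and -0.00845 for Cebpb, and the Crem interaction was 0.17. The Crem interaction was 0.0152 without the filter and 0.0253 with the run block, Batf in stimulated cells was -0.0129 with the run block, and Mafg under vehicle was 0.00135 in the 2-group fit. Libraries were not paired in the main fit. Deviations of same-numbered libraries from their group means correlated at -0.279 to 0.331. In a group of 2 libraries these deviations mirror each other by construction, so such correlations cannot decide which libraries pair. Deviations within an index run correlated at -0.0516 to 0.464, with the unstimulated pairs at 0.279 and 0.464. The replicate block also gained the stimulation change of Mafk with Compound 10, the stimulated difference of Nfil3 and the interactions of Atf3 (1.72) and Mafk (-0.83). With the replicate block the Batf differences were -0.0455 in stimulated and 0.00626 in unstimulated cells and -0.0517 for the interaction, and the Maff interaction was -0.00619.

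Leaving out each library gave 2347 to 4370 called genes for stimulation with Compound 10, 3568 to 5769 under vehicle, 1589 to 3919 for Compound 10 in stimulated and 325 to 1335 in unstimulated cells, and 191 to 1332 for the interaction. Of the 10 genes it called 5 to 8, 7 to 7, 0 to 3, 1 to 4 and 0 to 3 in the same order. Crem transcripts called were 1 to 5, 4 to 7, 0 to 0, 0 to 1 and 0 to 0. Ranges that crossed 0 were -0.15 to 0.15 for the Crem interaction, -0.91 to 0.25 for the Cebpb interaction, -0.16 to 0.10 for Mafg under vehicle, -0.24 to 0.0632 for Batf in unstimulated cells, and in stimulated cells -0.0215 to 0.20 for Batf, -0.24 to 0.0225 for Mafg and -0.255 to 0.0382 for Crem. The Crem share difference ranged from -2.35 to 3.04 points for stimulation and from -7.05 to -1.67 points for Compound 10. It was -0.12 for stimulation with a narrower downstream region and -2.45 for Compound 10 from TPM. The cause of these changes was not tested.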
